A study of Mus musculus with 20 samples.

Results

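Il6ra, Il6st, Stat3 and Socs3 encode the interleukin-6 (IL-6) receptor and the core of the signalling path behind it. These 4 genes, out of 22878 gene symbols in the deposited RNA tables, were taken by symbol and followed through 12 RNA libraries of sorted mouse CD4 T cells. A gene with several transcript rows was represented by the row with the most reads. The groups were sorted with reporters of T-bet, the transcription factor of T helper 1 cells, in 2 different ways. The spleen sort separated present from past T-bet expression, and the lymph node sort separated cells marked for present or past T-bet expression from unmarked cells.

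In the spleen of naive ZTCE-tdTomato mice (C57BL/6), a T-bet-ZsGreen-T2A-CreERT2 allele was combined with Rosa26-loxP-STOP-loxP-tdTomato. All spleen cells were CD4+CD44highCD25- and tdTomato+, the mark of a T-bet history, and were ZsGreen+ (expressing T-bet) or ZsGreen-. CreERT2 acts only with tamoxifen, and its dose and timing are not given in the sources used here. Cells of the lymph node came from T-bet-Cre mice with the same Rosa26 tdTomato reporter, also on C57BL/6. They were taken from draining lymph nodes 16 days after immunization with AS15 in complete Freund's adjuvant (CFA) and bound the AS15 tetramer. They were CXCR5high PD1high (follicular helper T cells, Tfh) or CXCR5low PD1low (non-Tfh), and Tomato+ or Tomato-. Cre in these mice is driven by T-bet, so Tomato marks present or past T-bet expression and does not tell them apart. Age and sex of the mice are not given in the sources used here. Each of the 6 groups had 2 libraries. No label says that these came from separate animals, so p-values reflect only how far these samples spread, and that spread may be technical.

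IL-6 binds its receptor subunit IL-6Rα, encoded by Il6ra, and the complex recruits gp130, encoded by Il6st, which many related cytokines share. Kinases of the JAK family bound to gp130 then activate STAT3, a transcription factor that acts on genes of Tfh and T helper 17 cells. SOCS3, whose gene is a STAT3 target, binds gp130 and damps the signal.

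Gene counts summed to between 13169783 and 24174592 per library. Genes with any read numbered 15080 to 15326 in the spleen libraries and 11154 to 11805 in the lymph node libraries. Markers of CD4 T cells were present throughout, with Cd4 between 188.8 and 444.0 RPKM (reads per kilobase of transcript, scaled to library size) and Cd3e between 196.9 and 364.2 RPKM. The 5 Tfh marker genes summed to 1106 to 1463 RPKM in the Tfh libraries and to 451.9 to 550.9 RPKM in the non-Tfh libraries. Most of each Tfh sum was Cxcr5 and Pdcd1, the genes of the proteins used for the sort. Icos lay the other way, with means of 184.0 (Tomato+) and 160.4 RPKM (Tomato-) in Tfh cells. In non-Tfh cells its means were 260.0 (Tomato+) and 260.9 RPKM (Tomato-). Markers of other cells were also detected. Of 7 macrophage and monocyte markers all were found, summing to 72.3 to 1045 RPKM in the lymph node libraries. Neutrophil markers (8 of 9 found) summed to 758.0 to 1184 RPKM in the spleen. In the lymph node they reached 448.0 RPKM in Tfh Tomato- replicate 2 and 354.9 RPKM in non-Tfh Tomato- replicate 2, against 10.2 and 6.38 RPKM in replicate 1 of these groups. The sum was 100.9 RPKM in non-Tfh Tomato+ replicate 1 and 10.7 RPKM in replicate 2 of that group. B cell markers (5 genes) summed to 76.3 to 128.5 RPKM over all libraries, dendritic cell markers (5 genes) to 4.52 to 21.0 RPKM and CD8 T cell markers (2 genes) to 11.97 to 42.4 RPKM.

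Promoter sequence is shown for the receptor subunits, which moved together across the libraries, and for Socs3, where a STAT motif was found. Each run is the 250 bases upstream of the annotated start, from RefSeq on GRCm38.p6, written 5′ to 3′ on the gene's strand. Il6ra lies on the minus strand (chr3:89913197-89913446), Il6st on the plus strand (chr13:112463820-112464069) and Socs3 on the minus strand (chr11:117969367-117969616). Capitals mark TTCNNNGAA, the spaced palindrome that STAT proteins bind, which reads the same on both strands.
Il6ra: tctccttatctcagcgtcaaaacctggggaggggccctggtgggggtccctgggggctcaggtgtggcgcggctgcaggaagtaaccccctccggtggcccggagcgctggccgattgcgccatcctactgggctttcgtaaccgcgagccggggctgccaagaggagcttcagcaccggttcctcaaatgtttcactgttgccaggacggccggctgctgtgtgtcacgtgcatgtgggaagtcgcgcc
Il6st: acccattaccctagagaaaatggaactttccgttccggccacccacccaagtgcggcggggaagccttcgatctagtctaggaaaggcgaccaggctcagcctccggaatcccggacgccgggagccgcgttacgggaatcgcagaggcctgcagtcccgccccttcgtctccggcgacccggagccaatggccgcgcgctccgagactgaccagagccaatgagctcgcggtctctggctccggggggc
Socs3: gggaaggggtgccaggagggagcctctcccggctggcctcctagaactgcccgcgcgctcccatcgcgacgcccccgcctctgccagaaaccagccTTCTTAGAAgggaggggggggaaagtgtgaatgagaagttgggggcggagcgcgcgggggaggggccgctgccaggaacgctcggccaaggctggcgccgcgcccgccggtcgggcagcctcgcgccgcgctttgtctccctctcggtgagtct
The Socs3 run holds 1 match, TTCTTAGAA, from 154 to 146 bases upstream of the start. No match was found in this window of Il6ra, Il6st or Stat3. Of all 32851 windows of this length, 7.02% hold the motif. A match describes the letters alone, and binding was not measured at these windows.

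Il6ra, the ligand-binding subunit, had lower RPKM in ZsGreen+ than in ZsGreen- spleen cells, and in Tomato+ than in Tomato- lymph node cells. In the spleen its RPKM was 23.0 and 18.9 in the ZsGreen+ libraries and 77.3 and 69.7 in the ZsGreen- libraries. In Tfh cells it was 55.9 and 59.9 RPKM in Tomato+ and 105.1 and 110.2 RPKM in Tomato-. In non-Tfh cells it was 27.8 and 22.0 RPKM in Tomato+ and 85.3 and 65.5 RPKM in Tomato-. The groups did not overlap in any of these pairs. By group mean the order ran from Tfh Tomato- (107.6 ± 3.65 RPKM, SD, n = 2) through non-Tfh Tomato- (75.4 ± 14.0), spleen ZsGreen- (73.5 ± 5.36), Tfh Tomato+ (57.9 ± 2.89) and non-Tfh Tomato+ (24.9 ± 4.09) to spleen ZsGreen+ (20.9 ± 2.96). The neighbours non-Tfh Tomato- and spleen ZsGreen- overlapped, as did non-Tfh Tomato+ and spleen ZsGreen+. Each library held 1729 to 10259 Il6ra reads, a counting error of 2.40% to 0.987%, smaller than the SD between replicates in every group.

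Il6st, the shared signalling subunit gp130, ran at a lower level per length than Il6ra in all 12 libraries. Its RPKM was 7.85 and 7.18 in spleen ZsGreen+ and 23.1 and 23.6 in spleen ZsGreen-. Tfh Tomato+ libraries had 40.2 and 33.2 RPKM and Tfh Tomato- libraries 63.3 and 41.8 RPKM. Non-Tfh Tomato+ libraries had 16.4 and 14.2 RPKM and non-Tfh Tomato- libraries 37.3 and 38.1 RPKM. ZsGreen+ libraries lay below ZsGreen- libraries and Tomato+ below Tomato- libraries, narrowly in Tfh cells, where replicates of the Tomato- group were far apart. By group mean the order was Tfh Tomato- (52.6 ± 15.2 RPKM, SD, n = 2), non-Tfh Tomato- (37.7 ± 0.576), Tfh Tomato+ (36.7 ± 4.95), spleen ZsGreen- (23.3 ± 0.355), non-Tfh Tomato+ (15.3 ± 1.54) and spleen ZsGreen+ (7.52 ± 0.476). The only neighbours to overlap were non-Tfh Tomato- and Tfh Tomato+.

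The ratio of Il6ra to Il6st RPKM, a measure of subunit balance at the RNA level, was 2.63 to 2.93 in spleen ZsGreen+ and 2.95 to 3.35 in spleen ZsGreen-. It was lower in most lymph node libraries, at 1.39 to 1.80 in Tfh Tomato+, 1.66 to 2.63 in Tfh Tomato-, 1.55 to 1.70 in non-Tfh Tomato+ and 1.72 to 2.29 in non-Tfh Tomato-. All lymph node libraries except Tfh Tomato- replicate 2 lay below the lowest spleen ratio. Protein levels and receptor shedding were not measured here.

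**Figure D1:**
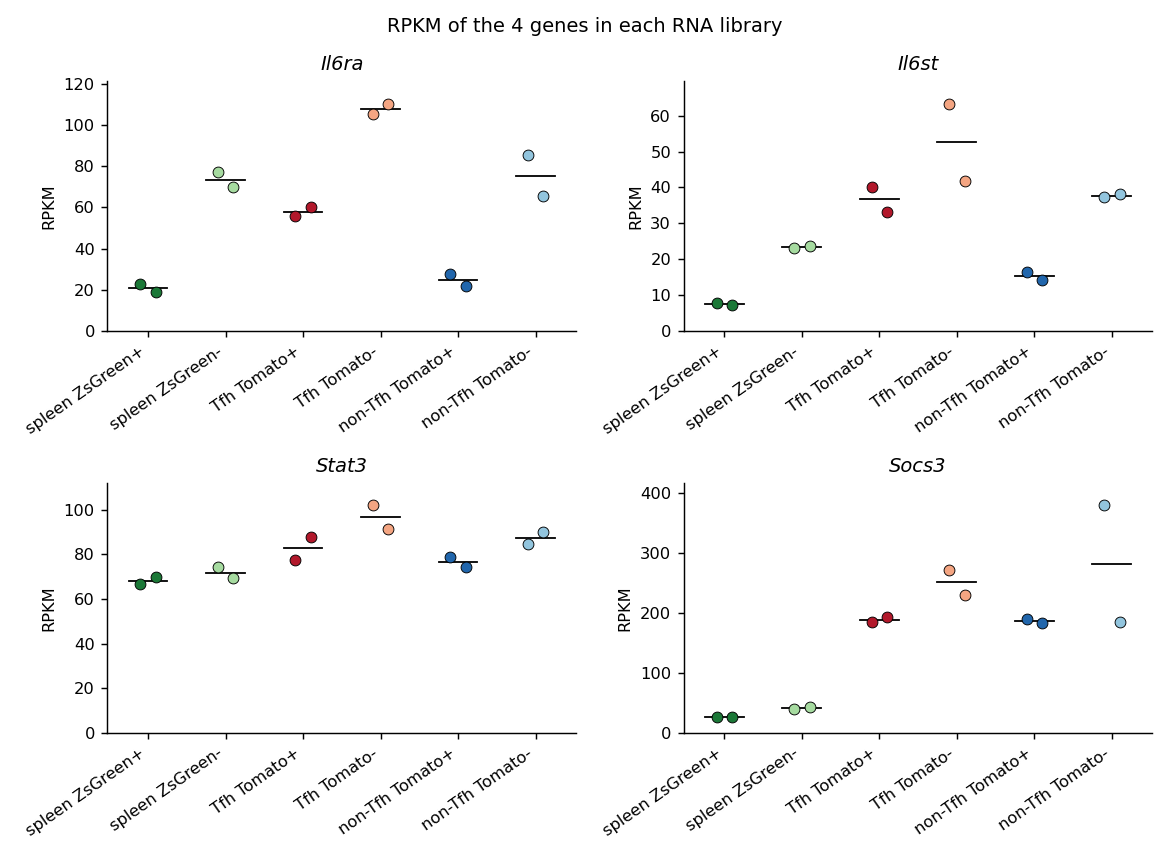
RPKM (vertical axis, from 0) of Il6ra, Il6st, Stat3 and Socs3 in each of the 12 libraries, by group on the horizontal axis, with points for libraries and short lines for the mean of 2. Il6ra and Il6st lie lower in ZsGreen+ than in ZsGreen- and in Tomato+ than in Tomato-, Stat3 spans a narrow range from 66.8 to 101.9 RPKM, and Socs3 lies between 25.9 and 43.3 RPKM in the spleen and from 183.6 to 379.6 RPKM in the lymph node.

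Stat3, the transcription factor activated downstream of gp130, varied least of the 4 genes. Spleen ZsGreen+ libraries had 66.8 and 69.7 RPKM and spleen ZsGreen- libraries 74.1 and 69.6 RPKM. Tfh Tomato+ libraries had 77.7 and 88.0 RPKM, and Tfh Tomato- libraries 101.9 and 91.5 RPKM. Non-Tfh Tomato+ libraries had 78.7 and 74.4 RPKM, and non-Tfh Tomato- libraries 84.8 and 90.0 RPKM. The spleen groups overlapped, while the lymph node groups of each pair did not. Group means ran from 96.7 ± 7.40 RPKM (SD, n = 2) in Tfh Tomato- to 68.2 ± 2.04 in spleen ZsGreen+, with non-Tfh Tomato- (87.4 ± 3.68), Tfh Tomato+ (82.8 ± 7.28), non-Tfh Tomato+ (76.6 ± 3.01) and spleen ZsGreen- (71.9 ± 3.19) between. Neighbours overlapped except Tfh Tomato- with non-Tfh Tomato-, and non-Tfh Tomato+ with spleen ZsGreen-. The tables hold 3 Stat3 transcript rows, whose RPKM differed by at most 0.389%.

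Socs3, the feedback inhibitor, was set apart by tissue. Its RPKM was 25.9 and 26.8 in spleen ZsGreen+ and 40.3 and 43.3 in spleen ZsGreen-. Tfh Tomato+ libraries had 184.8 and 193.2 RPKM and Tfh Tomato- libraries 272.6 and 229.5 RPKM. Non-Tfh Tomato+ libraries had 189.8 and 183.6 RPKM and non-Tfh Tomato- libraries 379.6 and 185.6 RPKM. The lowest lymph node library stood above the highest spleen library, and non-Tfh Tomato- replicate 1 stood above the other 11 libraries. Group means were 282.6 ± 137 RPKM (SD, n = 2) in non-Tfh Tomato-, 251.0 ± 30.4 in Tfh Tomato-, 189.0 ± 5.93 in Tfh Tomato+, 186.7 ± 4.38 in non-Tfh Tomato+, 41.8 ± 2.14 in spleen ZsGreen- and 26.4 ± 0.676 in spleen ZsGreen+. Overlapping neighbours were non-Tfh Tomato- with Tfh Tomato-, and Tfh Tomato+ with non-Tfh Tomato+.

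Between tissues the medians were set side by side without a test. The lymph node median was 5.70 times the spleen median for Socs3, 2.43 times for Il6st, 1.35 times for Il6ra and 1.24 times for Stat3. Mouse line, tissue, gate and immunization differed together and cannot be told apart. The number of genes with reads differed along with them, so the libraries of the tissues were not alike in this respect. The Socs3 to Stat3 ratio of RPKM was 0.385 to 0.623 in the spleen and 2.06 to 4.48 in the lymph node.

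The first comparison asked how T-bet-expressing spleen cells differ from cells with a T-bet history alone. Il6ra, Il6st and Socs3 fell in ZsGreen+ cells, and Stat3 did not pass the test. In edgeR's quasi-likelihood test with Benjamini-Hochberg adjustment, Il6ra was 3.59-fold lower (log2 fold change -1.85 ± 0.11, SE; adjusted p = 2.62e-06). Il6st was 3.18-fold lower (-1.67 ± 0.09, adjusted p = 1.16e-06 in the same edgeR test). Socs3 was 1.63-fold lower (-0.71 ± 0.08, edgeR adjusted p = 0.000181). Stat3 differed by -0.11 ± 0.07 on the log2 scale, with an edgeR adjusted p of 0.308. Thus 3 of the 4 genes were called lower, where 12.4% of 12918 tested genes were called lower and 23.8% were called in either direction. The libraries of these 3 did not overlap, as for 26.9% of genes in the lower direction. The calls were many in this sort, and 3.82% of tested genes had a larger absolute fold change than Il6ra, 4.53% than Il6st and 16.9% than Socs3.

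Markers of other cells and states moved with this comparison, and so did Cd4. Its level was 193.8 RPKM in ZsGreen+ and 371.7 RPKM in ZsGreen- cells on average, and it was the 1 of 5 CD4 T cell identity genes called, in the same direction as Il6ra. Naive and central memory genes summed to 536.7 to 585.5 RPKM in ZsGreen+ and 1072 to 1082 RPKM in ZsGreen- libraries, and 6 of 8 fell while 2 rose. The 5 Tfh markers all fell, with sums of 117.9 to 130.9 RPKM against 280.5 to 291.8 RPKM. The 4 markers of NK and innate-like T cells all rose, from 7.16 to 7.43 RPKM in ZsGreen- to 77.9 to 79.1 RPKM in ZsGreen+ libraries. Macrophage and monocyte markers summed to 322.4 to 386.2 RPKM in ZsGreen+ and 240.3 to 287.6 RPKM in ZsGreen-, the opposite direction to Il6ra, and 3 of 7 rose. Neutrophil markers, at 1138 to 1184 RPKM in ZsGreen+ and 758.0 to 1029 RPKM in ZsGreen-, were likewise opposite to Socs3, and 2 of 8 rose. Treg markers summed to 23.1 to 26.8 RPKM in ZsGreen+ and 52.3 to 54.6 RPKM in ZsGreen-, where 2 fell and 1 rose. Dendritic cell markers summed to 10.3 to 13.1 RPKM in ZsGreen+ and 5.05 to 5.51 RPKM in ZsGreen-, and 2 of 5 rose. The part of these lists and of Cd4 in the receptor changes was not tested. In bulk libraries fewer cells of a type and less RNA per cell cannot be told apart.

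**Figure D2:**
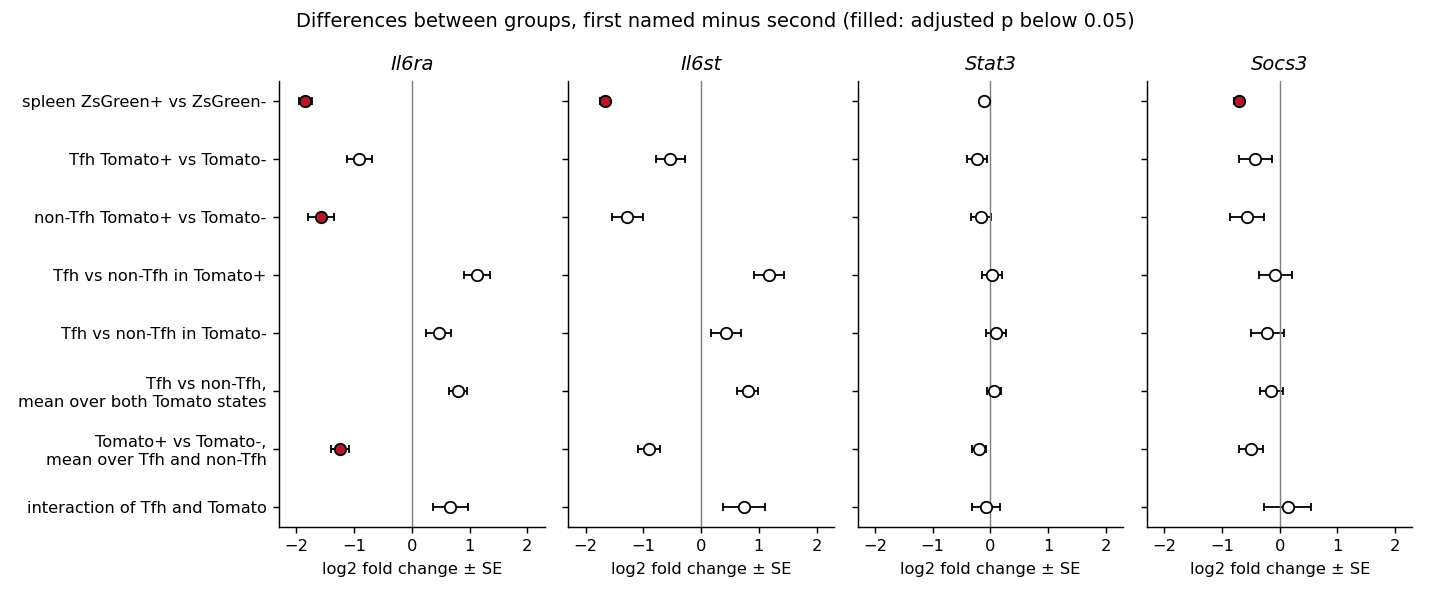
Log2 fold change (horizontal axis; points, with bars of 1 SE) of the 4 genes in the spleen comparison and in each lymph node comparison, from edgeR. Filled points passed an adjusted p below 0.05, namely Il6ra, Il6st and Socs3 in the spleen and Il6ra in the non-Tfh Tomato comparison and in the Tomato comparison averaged over both cell types.

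The lymph node comparisons asked whether antigen-specific cells with a T-bet history differ from those without. In Tfh cells all 4 genes had lower RPKM in both Tomato+ libraries than in both Tomato- libraries, where 16.5% of 11746 tested genes did so. None of the 4 passed edgeR's quasi-likelihood test, in which 0.111% of genes were called. Il6ra differed by -0.91 ± 0.22 on the log2 scale (SE; edgeR adjusted p = 0.411), and 685 genes had an unadjusted p below 0.05. DESeq2 called 1 of the 4, Il6ra, with an adjusted p of 0.00615. The edgeR share does not apply to that call, and up to 304 genes were called over the alternatives. Il6st differed by -0.53 ± 0.26, Socs3 by -0.42 ± 0.29 and Stat3 by -0.24 ± 0.17, with edgeR adjusted p of 0.833, 0.892 and 0.924. The Il6st difference was -0.21 without Tfh Tomato- replicate 1 and -0.81 without Tfh Tomato- replicate 2.

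In non-Tfh cells Il6ra fell in Tomato+ cells, 2.98-fold (log2 fold change -1.57 ± 0.22, SE; edgeR adjusted p = 0.0312). It was the only call among the 4 genes, where 0.332% of genes were called in either direction and 0.128% lower. A larger absolute fold change than that of Il6ra was found in 23.3% of tested genes. The call rests on few libraries, since the edgeR adjusted p was 0.159 without non-Tfh Tomato+ replicate 1, 0.212 without non-Tfh Tomato+ replicate 2, 0.0747 without non-Tfh Tomato- replicate 1 and 0.087 without non-Tfh Tomato- replicate 2. The adjusted p was likewise above 0.05 without Tfh Tomato+ replicate 1 (0.0526) or Tfh Tomato+ replicate 2 (0.0549), which enter this contrast through the spread. Il6st differed by -1.28 ± 0.26 on the log2 scale with an edgeR adjusted p of 0.133, and its groups did not overlap. Stat3 differed by -0.16 ± 0.17, also without overlap, and its edgeR adjusted p was 0.872. Socs3 differed by -0.56 ± 0.29 with overlapping groups and an edgeR adjusted p of 0.614, and without non-Tfh Tomato- replicate 1 its difference was 0.02. The 3 genes whose libraries lay lower without overlap stand against 18.8% of tested genes.

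Averaged over Tfh and non-Tfh cells, Il6ra fell 2.36-fold in Tomato+ cells (log2 fold change -1.24 ± 0.15, SE; edgeR adjusted p = 0.0106). All 4 Tomato+ libraries lay below all 4 Tomato- libraries, as for 2.23% of genes, while 0.656% of genes were called in either direction and 0.179% lower. Of tested genes 22.1% had a larger absolute fold change than Il6ra. The adjusted p was 0.0558 without Tfh Tomato+ replicate 1 and 0.0555 without non-Tfh Tomato+ replicate 2. Il6st differed by -0.90 ± 0.18 with an edgeR adjusted p of 0.11, Socs3 by -0.49 ± 0.20 with 0.428 and Stat3 by -0.20 ± 0.12 with 0.635. The libraries of these 3 genes overlapped.

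Macrophage and monocyte markers were lower in the same direction as Il6ra here. They summed to 233.1 to 259.8 RPKM in Tfh Tomato+ against 726.7 to 910.8 RPKM in Tfh Tomato-, and to 72.3 to 119.9 RPKM in non-Tfh Tomato+ against 1032 to 1045 RPKM in non-Tfh Tomato-. Lyz2, a macrophage lysozyme, made up most of each sum, and Emr1 was at 0 in Tfh Tomato+ replicate 2 alone. In the Tfh comparison none of the 7 passed the test, and Cd68, Cybb and Itgam overlapped between the Tomato states. In the non-Tfh comparison 2 of 7 passed the test, both lower. Naive and central memory genes summed to 1025 to 1040 RPKM in non-Tfh Tomato+ and 1621 to 2121 RPKM in non-Tfh Tomato-. In Tfh cells the sums were 791.6 to 894.7 RPKM in Tomato+ against 928.5 to 985.2 RPKM in Tomato-. None of the 8 genes passed the test in either cell type. Ccr7 had the largest gap in non-Tfh cells, with means of 268.3 RPKM in Tomato+ and 686.1 RPKM in Tomato-. Means of Il7r and Satb1 were higher in Tomato+ in both cell types, and those of S1pr1 and Ccr7 in Tfh cells alone. Markers of NK and innate-like T cells summed higher in Tomato+, the direction opposite to Il6ra. Their sums were 28.0 to 47.8 RPKM in Tfh Tomato+ against 8.74 to 14.0 RPKM in Tfh Tomato-. In non-Tfh cells they were 43.7 to 47.3 RPKM in Tomato+ against 7.38 to 11.5 RPKM in Tomato-. Klrk1 made up most of each Tomato+ sum, and Klrb1c overlapped between the Tomato states in both cell types. Of these 4 NK and innate-like markers 0 were called in Tfh cells and 1, higher in Tomato+, in non-Tfh cells. Treg marker sums were also higher in Tomato+ cells, at 15.6 to 24.7 RPKM in Tfh Tomato+ against 11.4 to 11.9 RPKM in Tfh Tomato-, and at 40.9 to 48.5 RPKM against 20.6 to 24.3 RPKM in non-Tfh cells. None of the 3 Treg genes passed the test, and Foxp3 overlapped in Tfh cells. The mean of Ikzf2 lay the other way in non-Tfh cells, at 3.5 RPKM in Tomato+ against 6.3 RPKM in Tomato-. The part of these lists in the Il6ra result was not tested. The second libraries of both Tomato- groups held the highest neutrophil sums of the lymph node. In a fit without them, which left 1 library in each Tomato- group, neither Il6ra call was kept. Its Il6ra differences lay within the ranges over all alternatives, -1.76 to -1.39 in non-Tfh cells and -1.35 to -1.15 on average. Non-Tfh Tomato+ replicate 1, with a neutrophil sum of 100.9 RPKM, stayed in that fit.

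**Figure D3:**
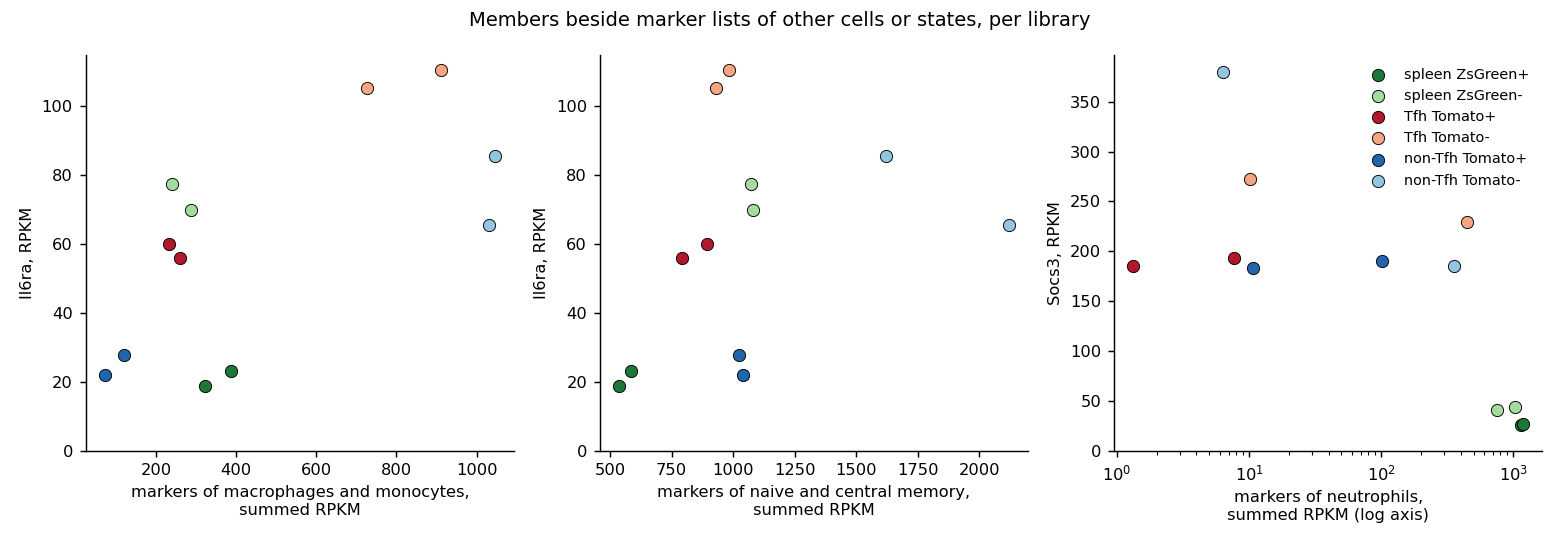
Each point is a library: Il6ra RPKM against the summed RPKM of macrophage and monocyte markers (left) and of naive and central memory markers (middle), and Socs3 RPKM against neutrophil markers on a log axis (right). Lymph node Tomato- libraries lie to the right of Tomato+ libraries in the left panel, whereas spleen ZsGreen+ libraries lie to the right of ZsGreen-, and the Socs3 library at 379.6 RPKM has a neutrophil sum of 6.38 RPKM.

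The comparison of Tfh with non-Tfh cells gave no edgeR call among the 4 genes. Among Tomato+ cells both receptor genes were higher in Tfh without overlap, where 22.3% of genes were so and 0.0766% were called. Il6ra was 2.19-fold higher (log2 fold change 1.13 ± 0.22, SE; edgeR adjusted p = 0.138) and Il6st 2.26-fold higher (1.18 ± 0.26; edgeR adjusted p = 0.196). DESeq2 called both. Stat3 (0.02 ± 0.17) and Socs3 (-0.07 ± 0.29) overlapped between the groups, each with an edgeR adjusted p of 1, and 962 genes had an unadjusted p below 0.05. Among Tomato- cells Il6ra, Il6st and Stat3 had higher RPKM in Tfh without overlap, as had 20% of genes, and 0.179% were called. Their log2 differences were 0.47 ± 0.22, 0.43 ± 0.26 and 0.10 ± 0.17, and Socs3 differed by -0.21 ± 0.29. The Il6st difference was 0.11 without Tfh Tomato- replicate 1 and 0.71 without Tfh Tomato- replicate 2. That of Il6ra was 0.65 without non-Tfh Tomato- replicate 1 and 0.30 without non-Tfh Tomato- replicate 2. The edgeR adjusted p values ran from 0.578 to 0.966, and 1060 genes had an unadjusted p below 0.05.

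Averaged over both Tomato states, Il6ra was 0.80 ± 0.15 higher in Tfh on the log2 scale (edgeR adjusted p = 0.0576) and Il6st 0.80 ± 0.18 higher (edgeR adjusted p = 0.111). The libraries of all 4 genes overlapped between Tfh and non-Tfh. Of all genes 1.07% were called, and 1410 had an unadjusted p below 0.05. Il6ra passed at 0.0448 with no filter on low counts and at 0.0432 with a filter of 5 RPKM, and DESeq2 called Il6ra and Il6st. Up to 826 genes were called over the alternatives, and the share of 1.07% holds for the main edgeR fit alone. The sort itself used CXCR5 and PD1 protein and neither receptor gene. Macrophage and monocyte sums were higher in Tfh than in non-Tfh among Tomato+ cells (233.1 to 259.8 against 72.3 to 119.9 RPKM), the direction of Il6ra and Il6st, and lower among Tomato- cells (726.7 to 910.8 against 1032 to 1045 RPKM), and on average none of the 7 passed the test. Naive and central memory sums were lower in Tfh in both Tomato states, and 5 of the 8 genes fell on average. Tcf7 of this list was higher in Tfh, though it did not pass the test on average. Its means were 368.8 against 172.7 RPKM among Tomato+ cells and 487.2 against 335.6 RPKM among Tomato- cells. The part of these lists in the receptor differences was not tested.

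Whether the Tomato difference itself changed between Tfh and non-Tfh cells was tested by the interaction. It was 0.66 ± 0.30 for Il6ra (SE, log2 scale; edgeR adjusted p = 0.782) and 0.74 ± 0.36 for Il6st (edgeR adjusted p = 0.806). Stat3 (-0.07 ± 0.24) and Socs3 (0.14 ± 0.41) had an edgeR adjusted p of 1. No gene was called (0%), while 746 had an unadjusted p below 0.05, and DESeq2 called none of the 4. A difference in the Tomato effect between the cell types was therefore not detected with these libraries. This does not show that the effects are equal.

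**Figure D4:**
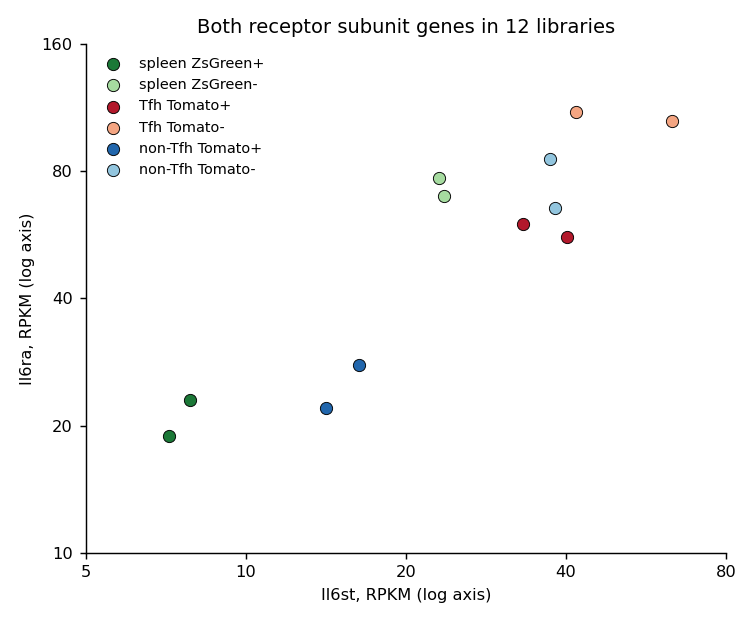
Il6ra RPKM (vertical log axis) against Il6st RPKM (horizontal log axis) in the 12 libraries, coloured by group. In every library Il6ra exceeds Il6st, and the spleen libraries lie at higher ratios of Il6ra to Il6st than all lymph node libraries but Tfh Tomato- replicate 2, at 2.63.

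The receptor subunits had closely similar patterns. After the mean of each tissue was subtracted from log2(RPKM + 1), Il6ra and Il6st correlated over the 12 libraries with Pearson's r of 0.961. Among 7284 genes with a mean of at least 5 RPKM, Il6st ranked the nearest to Il6ra, followed by Id3 (0.955), an inhibitor of E proteins, and Nsg2 (0.945). Nearest to Il6st were Folr4 (0.961), Il6ra and Tcf7 (0.960), the transcription factor TCF-1 of naive, memory and Tfh cells. Tcf7 means were 103.3 RPKM in spleen ZsGreen+ and 327.9 in ZsGreen-, and 172.7 in non-Tfh Tomato+ and 335.6 in non-Tfh Tomato-. In Tfh cells they were 368.8 RPKM in Tomato+ and 487.2 RPKM in Tomato-. For Stat3 the nearest were Zwint (0.903), Mbtps1 (0.899) and Il1r1 (0.887), and for Socs3 Lcp2 (0.888), Frmd4b (0.812) and Id3 (0.811). Stat3 and Socs3 correlated at 0.426. These values describe libraries that share sorts and groups, and carry no p.

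Il6 itself was close to 0 in these T cells. No reads were found in 6 of the 12 libraries, 4 libraries had 1 to 4 reads, and Tfh Tomato- replicate 1 had 105 reads (3.31 RPKM) and non-Tfh Tomato- replicate 1 had 14. Jak1, the kinase most tied to gp130, ranged from 84.8 to 125.3 RPKM. Il27ra, the IL-27 receptor subunit that pairs with gp130, ranged from 91.5 to 171.8 RPKM.

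The wider pathway was described with 59 genes in 8 lists, chosen with earlier results of these data known. In the spleen 16 of 53 tested genes rose and 15 fell in ZsGreen+ cells, where 23.8% of all 12918 tested genes were called. Their median log2 change was -0.06 against 0.00 over all genes. Among 9 ligands of the gp130 family 5 were tested, of which Clcf1 rose (1.26 ± 0.11, log2; 41.2 against 16.7 RPKM), and Ebi3 (-1.0 ± 0.14; 8.29 against 16.2 RPKM) and Lif (-2.25 ± 0.43; 0.188 against 0.849 RPKM) fell. Of 5 other gp130 family receptors 3 were tested and Il27ra rose, by 0.38 ± 0.08, opposite in sign to Il6st with which its product pairs. Of 6 other receptors that signal through STAT3, 3 rose and 2 fell. Il12rb1, shared by the IL-12 and IL-23 receptors, rose by 1.29 ± 0.08 (59.5 against 23.6 RPKM), whereas Il23r, the IL-23 subunit, was at 0.0435 against 0.747 RPKM and fell. Il21r, the IL-21 receptor, fell from 102.7 to 83.7 RPKM on average, a call lost without spleen ZsGreen+ replicate 1 (adjusted p = 0.0594).

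Other SOCS genes that passed the test differed from Socs3 in direction. Of 7 other SOCS genes 4 rose and none fell while 3 did not pass in spleen ZsGreen+ cells, with a list median of 0.89. Socs2 rose by 2.69 ± 0.14 (17.4 against 2.61 RPKM), Cish by 1.41 ± 0.11 (65.1 against 23.8 RPKM) and Socs1 by 0.99 ± 0.10 (166.7 against 82.1 RPKM). Of 7 kinases, phosphatases and PIAS proteins 2 rose and 2 fell, among them Jak2 (19.0 against 12.9 RPKM) and Ptpn11, encoding the phosphatase SHP2 (17.6 against 24.8 RPKM). Pias3, which encodes an inhibitor of STAT3, fell in the same direction as Socs3 (11.4 against 14.2 RPKM), a call lost without spleen ZsGreen+ replicate 2 (adjusted p = 0.0704). Among the other STAT genes Stat4 rose, and Stat5a and Stat5b fell. Without spleen ZsGreen+ replicate 1 the adjusted p was 0.0859 for Stat4 and 0.0567 for Stat5a, and the Stat4 call was also lost without ZsGreen+ replicate 2 (0.166) or ZsGreen- replicate 1 (0.0726). Neither of the 2 receptor-shedding proteases passed the test. Of 17 genes regulated by STAT3 in T cells, 3 rose and 7 fell, with a median of -0.42. Bcl2 rose (29.6 against 12.04 RPKM), and Bcl6 fell (5.10 against 10.8 RPKM).

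**Figure D5:**
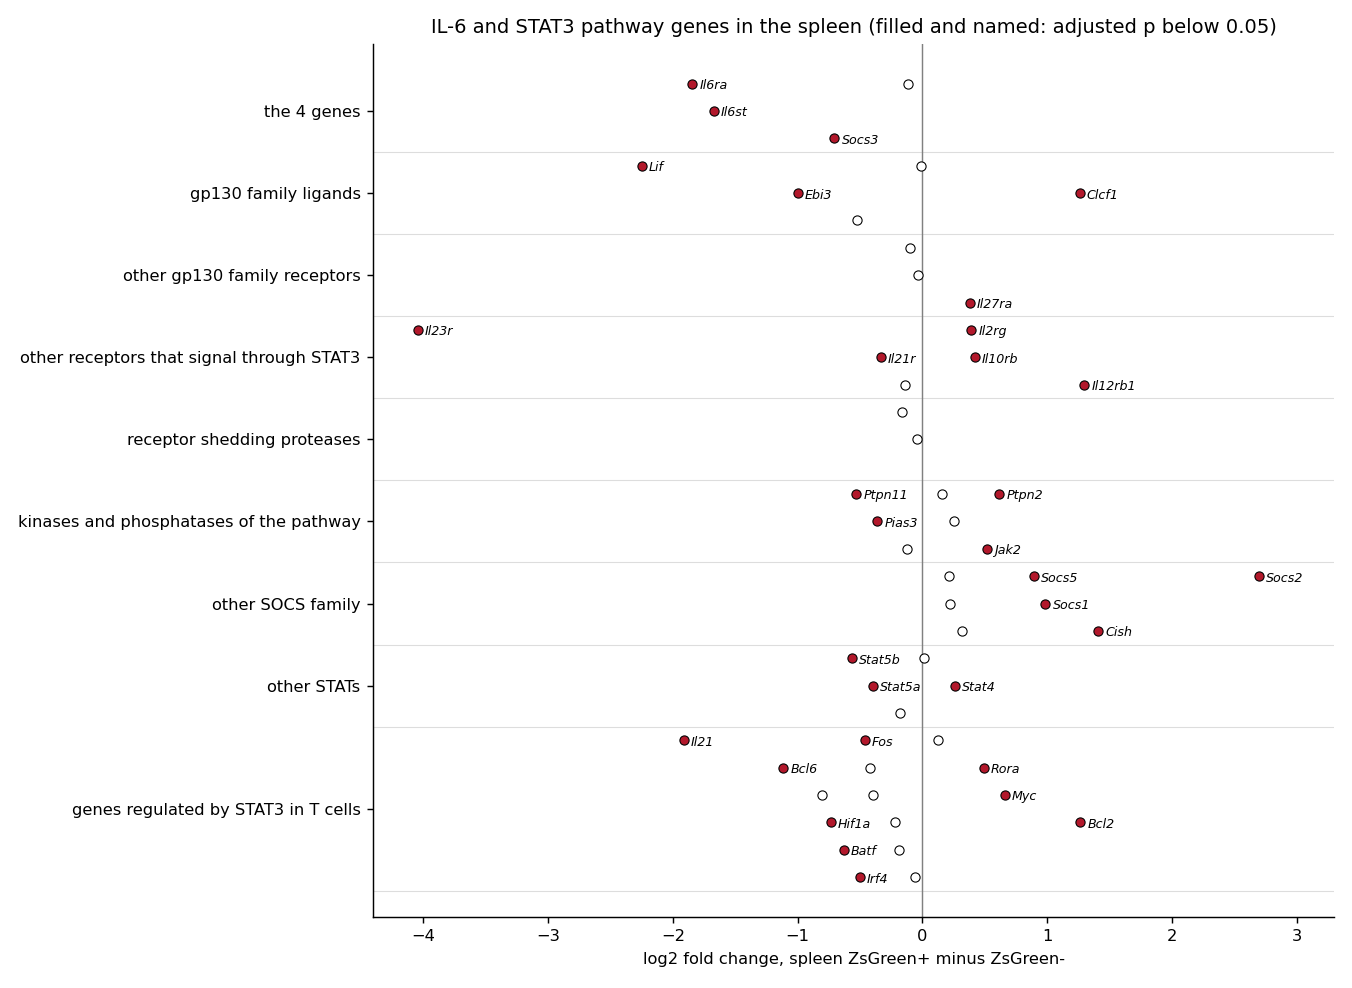
Log2 fold change of spleen ZsGreen+ minus ZsGreen- (horizontal axis) for the 4 genes and the 8 pathway lists (rows; the height within a row only separates points). Filled and named points passed an adjusted p below 0.05 in edgeR, and some list genes are not drawn; the 4 called SOCS genes lie to the right of 0, and Il6ra, Il6st and Socs3 to the left.

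In the lymph node few pathway genes passed the test. Over all genes the share called between Tomato states was 0.111% in Tfh cells, 0.332% in non-Tfh cells and 0.656% on average. Between Tfh and non-Tfh it was 0.0766% in Tomato+ cells, 0.179% in Tomato- cells and 1.07% on average. Between Tomato states Cish, a STAT5-induced inhibitor, was the only one called in each cell type. It rose in Tfh Tomato+ cells (58.5 against 6.01 RPKM; 3.27 ± 0.31, log2; edgeR adjusted p = 0.0126) and in non-Tfh Tomato+ cells (195.1 against 46.4 RPKM; 2.10 ± 0.29; edgeR adjusted p = 0.0312), the opposite sign to Il6ra. The Tfh call was lost without Tfh Tomato- replicate 2 (adjusted p = 0.0619), and the non-Tfh call without any of the 4 non-Tfh libraries (0.0503 to 0.186). On average over both cell types Cish rose and Fos fell (-0.58 ± 0.09; edgeR adjusted p = 0.0417), although the Fos call was lost without any single library of the 8 (0.0544 to 0.155). Between Tfh and non-Tfh, on average, 5 genes rose (Bcl6, Fos, Hif1a, Il21 and Ptpn11) and 2 fell (Cish and Mcl1), of which Bcl6 and Il21 mark Tfh cells. Bcl6 and Cish were called in all 17 alternatives and Fos and Hif1a in 16, whereas Il21 and Ptpn11 were called in 9 and Mcl1 in 4, each losing its call without several single libraries. Within Tomato+ cells Fos rose, a call lost without any of the 4 Tomato+ libraries (0.103 to 0.232). Within Tomato- cells Bcl6 and Hif1a rose and Cish fell. There the Cish call was lost without Tfh Tomato- replicate 2 (0.0532), that of Bcl6 without 4 of the single libraries (0.0514 to 0.17) and that of Hif1a without 7 (0.0544 to 0.154). Socs1 ranged from 164.0 to 326.0 RPKM and Stat4 from 26.1 to 55.0 RPKM over the lymph node libraries, and neither passed the test in any lymph node comparison.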

How the data were processed

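Polyadenylated RNA was measured in 12 libraries of sorted mouse T cells, 2 in each of 6 groups taken from the sample titles. In the deposited tables the authors gave a read count and an RPKM for each of 29257 RefSeq transcript rows. Header words of the 4 spleen tables exchange count and length, so there the count was taken as the value whose quotient by length is proportional to RPKM within 0.0005%. CASAVA 2.18, Bowtie2, SICER 1.1, edgeR and build mm9 are named, without roles, per the submitters' processing notes. Whether counting used strand: not given in the sources used here. Islands of the 8 DNase libraries were not used here.

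For each symbol the row with the most reads was kept (4019 symbols had several). Counts were tested with the quasi-likelihood F test of edgeR 4.0.16 (R 4.3.3, TMM, filterByExpr), with Benjamini-Hochberg adjustment over all genes tested and calls below 0.05. The 4 spleen libraries were fitted alone and the 8 lymph node libraries together with a mean per group. The standard error is the absolute log2 fold change divided by the square root of F. Alternatives were DESeq2 1.42.0, limma-trend 3.58.1 on log2(RPKM + 1) or log2(RPKM + 0.1), other size factors, other filters, summed rows, a replicate block, fits of fewer libraries and leaving out each library. The scripts were tested on simulated data with 4-fold changes planted. In the spleen comparison 100% of them were recovered at a biological coefficient of variation of 0.087. In the Tfh Tomato comparison 100% were recovered at 0.1 and 0% at 0.908. Counting error covers reads alone.

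The 4 genes and all lists were chosen with earlier results of these data known. Named in every comparison were the 4 genes, and further pathway genes by level, of which a few are not reported here. Further names were the called genes with the smallest adjusted p, up to 3 a list, and the 3 genes most like each of the 4. Other called pathway genes, and markers given for their level, were named after their values were seen. The motif was searched in RefSeq promoter windows on GRCm38.p6.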

Additional observations from a re-analysis of the deposited data

How the results depend on the processing

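In the spleen Il6ra, Il6st and Socs3 were called in all 12 alternatives. Their log2 fold changes ran from -2.01 to -1.70, from -1.75 to -1.52 and from -0.77 to -0.64. No alternative called Stat3. The lymph node calls depended on the setting and on single libraries, and the cause was not tested. The common biological coefficient of variation was 0.908 in the lymph node fit and 0.0867 in the spleen fit. In simulated data with a value of 0.908, 0% of planted 4-fold changes were recovered in the Tfh Tomato comparison. That value is common to all tested genes, and recovery for the 4 genes at their own spread was not simulated. A lymph node gene without a call is still not shown to be unchanged.

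Of the 4 genes, DESeq2 called 1 between Tomato states in Tfh cells, 2 in non-Tfh cells, 2 on average, and 2 between Tfh and non-Tfh both within Tomato+ cells and on average. In the same order, up to 304, 648, 697, 474 and 826 of all genes were called over the alternatives. The edgeR shares do not apply to the DESeq2 calls. Without the low-count filter, or with the 5 RPKM filter, 1 was called between Tfh and non-Tfh on average. The 1 call in non-Tfh cells became 0 with summed rows, with the replicate block, without both Tomato- second libraries and with the 4 compared libraries alone, and leaving out each library gave 0 to 1. The average Tomato call became 0 without both Tomato- second libraries, and leaving out each library gave 0 to 1. For Il6ra these settings gave log2 fold changes of -1.76 to -1.39 in non-Tfh cells (adjusted p 1.82e-09 to 0.212) and of -1.35 to -1.15 on average (adjusted p 6.2e-12 to 0.0646).

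Labels do not say whether same-numbered libraries shared a source. Deviations of same-numbered libraries correlated at 0.119 in the spleen and between -0.013 and 0.028 in the lymph node over all tested genes. These low values cannot show that the libraries were unpaired. The high neutrophil sums of the lymph node Tomato- groups both lay in second libraries. With the replicate block the spleen kept 3 calls, and Il6ra in non-Tfh cells had an adjusted p of 0.0572.

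Some differences that did not pass the test changed sign. On leaving out each library, Socs3 ran from -0.976 to 0.022 between Tomato states in non-Tfh cells, from -0.629 to 0.368 between Tfh and non-Tfh in Tomato- cells, from -0.353 to 0.146 on average and from -0.446 to 0.552 for the interaction, with the change of sign each time without non-Tfh Tomato- replicate 1. Between Tfh and non-Tfh in Tomato+ cells Socs3 was 0.0171 and 0.0172 with limma-trend at the pseudocounts 1 and 0.1. Stat3 there ran from -0.0596 (without Tfh Tomato+ replicate 2) to 0.0923, and its interaction from -0.16 to 0.006 (without Tfh Tomato- replicate 1).

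Pathway genes called in the spleen numbered 27 to 34. Between Tomato states in Tfh cells the count was 1, with 2 by DESeq2, 0 without both Tomato- second libraries, 0 with the 4 compared libraries alone and 0 to 1 on leaving out each library. In non-Tfh cells it was 1, with 4 by DESeq2, 2 with other size factors, limma-trend or either filter setting, 0 with summed rows, the replicate block or fewer libraries, and 0 to 2 on leaving out each library. Between Tfh and non-Tfh in Tomato+ cells it was 1, with 8 by DESeq2, 4 without a filter, 2 with other size factors, limma-trend or the 5 RPKM filter, 0 with summed rows, the replicate block or fewer libraries, and 0 to 2 on leaving out each library. In Tomato- cells it was 3, with 8 by DESeq2, 1 with summed rows, 0 with fewer libraries and 1 to 3 on leaving out each library. On average between Tfh and non-Tfh it was 7, with 11 by DESeq2, 2 without both Tomato- second libraries and 4 to 6 on leaving out each library. On average between Tomato states it was 2, with 6 by DESeq2, 1 with summed rows, 1 without both Tomato- second libraries and 1 on leaving out each library.

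Over all genes the calls were 3074 (2199 to 3681 over the alternatives) in the spleen. In the lymph node they were 13 (0 to 304) between Tomato states in Tfh cells, 39 (3 to 648) in non-Tfh cells and 77 (38 to 697) on average. Between Tfh and non-Tfh they were 9 (0 to 474) in Tomato+ cells, 21 (0 to 606) in Tomato- cells and 126 (27 to 826) on average, and for the interaction 0 (0 to 210).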

Other observations

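Fos and Junb, immediate early genes that were listed among those regulated by STAT3, showed the same tissue split as Socs3 on a larger scale. They were singled out after their values were seen. Fos was at 10.7 to 17.2 RPKM in the spleen libraries and at 730.1 to 2265 RPKM in the lymph node libraries. Junb was at 216.0 to 267.9 RPKM in the spleen and at 4296 to 6654 RPKM in the lymph node. Line, tissue, gate, immunization and the number of genes with reads differ between these libraries and cannot be told apart, and no test was made.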
